A study of Homo sapiens with 6 samples.

Results

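THP-1 is a human monocytic cell line from an acute leukaemia. The study grew it with human recombinant IL-6 (IL-6 culture) or without (labelled ctrl, here the control culture) and took total RNA for sequencing at 6, 24 and 48 h. The comparison described here is the IL-6 library of 48 h minus the IL-6 library of 24 h, which uses 2 of the 6 libraries, with the control libraries of the same times set beside it. There is 1 library per condition, so no difference within the IL-6 culture has a replicate error or a test. The IL-6 dose and what the control cells received are not given in the labels used here, and the labels do not say whether the libraries came from separate cultures. Of 19978 protein-coding rows, 13028 genes had a value in all 6 libraries, and 7105 of these had a mean level of at least 10 on the authors' scale, or no recovered level (1986 genes, treated as high), and were compared. The other 5923 lay below that level and are left out of the counts, which were far higher with lower filters. The level is a mean over the 6 libraries, so a gene near 10 could pass through the libraries where it was high.

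IL-6 binds its receptor IL6R together with the shared chain gp130 (IL6ST), which activates JAK kinases and the transcription factor STAT3. STAT3 switches on its own brake, SOCS3, and genes such as PIM1 and BCL3. In monocytes the cytokine is known for raising acute-phase and monocyte surface genes. Cultured cells are also known to respond to the age of the culture as nutrients and oxygen are used up.

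Values were deposited on a log2 scale with each gene centred, so 0 is the gene's own mean over the libraries and a difference of 1 is 2-fold. The median value of a library lay between -0.02 and 0.06, and the median change of the 7105 genes from 24 to 48 h was -0.01 in IL-6 culture and -0.05 in control culture. The cells carried the monocytic markers: all 16 of 16 had a value in every library, and 14 of them, like CD14, were among the genes whose level could not be recovered from the rounding of the values and which were treated as high. Of the 11 T and NK cell markers 4 had no value in any library, and the recovered levels of those with one summed to between 0.28 and 2.76 per library; NKG7 had a value in every library but no recovered level and is not in the sum. MS4A1, the B cell marker CD20, had no value in any library. Sums were 5.11 to 8.17 for 6 B cell markers, 0.01 to 0.93 for 8 erythroid and platelet markers, of which 6 had no value in any library, and 1.39 to 3.29 for 10 epithelial and fibroblast markers. In bulk RNA a smaller share of cells with a gene and less of its RNA per cell cannot be told apart.

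From 24 to 48 h in IL-6 culture, 145 of the 7105 genes differed by at least 2-fold (2.04%): 49 were higher (0.69%) and 96 lower (1.35%). Over the same interval the control culture had 48 such genes (0.676%), 17 higher (0.239%) and 31 lower (0.436%). The changes were wider in IL-6 culture, with an SD over genes of 0.40 log2 against 0.29 in control culture. Across genes the 2 changes had a Pearson r of 0.29 and a Spearman rho of 0.22 (7105 genes of the same 4 libraries, which are not independent replicates), and 56.6% of genes had the same sign in both.

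Each gene past 2-fold in IL-6 culture was set against its own control change. The control change was called shared when it was also at least 2-fold the same way, partial when it was 0.5 to 1 log2 the same way, lacking when it was under 0.5 in size, and opposite when it was at least 0.5 the other way. Of the 49 higher genes, 6 were shared, 13 partial, 28 lacking and 2 opposite. Among the 96 lower genes 10 were shared, 25 partial, 60 lacking and 1 opposite. Over all 7105 genes the control change ran from -0.50 at the 5th percentile to 0.38 at the 95th. A control change under 0.5 in size was thus the usual state of any gene, and the lacking class does not by itself mark a change as due to IL-6. The IL-6 change exceeded the control change by at least 1 log2 in 17 of the higher and 31 of the lower genes.

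The 2 largest increases in IL-6 culture were in surface receptors of myeloid and B cells. CD14, the co-receptor that hands bacterial lipopolysaccharide to Toll-like receptor 4, lies at chr5:140631728-140633701 on the minus strand (GRCh38). Its values were -0.87, -1.24 and -0.99 in control culture at 6, 24 and 48 h, and -0.16, 0.50 and 2.77 in IL-6 culture, an order of times kept below. The 3 IL-6 libraries lay above all 3 control libraries, and the IL-6 library of 48 h stood apart from the rest. The IL-6 change was 2.27 log2 (4.82-fold) against 0.25 in control culture, an excess of 2.02. FCER2, the low-affinity IgE receptor CD23 (chr19:7688758-7702146, minus strand), had values of 0.43, -0.51 and 0.45 in control and -0.04, -1.30 and 0.97 in IL-6 culture. Both cultures were lowest at 24 h, and the IL-6 culture had both the lowest and the highest library of the 6. Its change was 2.27 log2 (4.82-fold) in IL-6 culture and 0.95 in control culture, so it exceeded a partial control change.

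The sequence before the RefSeq start of CD14 is shown because its increase was the largest that the control culture lacked, and because IL-6 acts through STAT3. RefSeq's promoter table (GRCh38.p14) gives chr5:140633176-140633425 on the minus strand as the 250 bases before the gene start. The gene model in the deposited files begins further upstream, so the window lies inside that model. Capitals mark a match to TTCNNNGAA, the STAT motif (TTCCAGGAA, at -123 to -115 from the start), and to TGANTCA, the AP-1 motif (TGAGTCA, at -223 to -217).
CD14: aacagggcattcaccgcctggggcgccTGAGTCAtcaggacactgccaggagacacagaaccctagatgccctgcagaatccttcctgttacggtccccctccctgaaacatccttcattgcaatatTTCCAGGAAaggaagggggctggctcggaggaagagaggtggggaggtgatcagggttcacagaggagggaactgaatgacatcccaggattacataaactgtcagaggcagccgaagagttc
Both strands were searched. A match to the STAT motif was in 6.78% and one to the AP-1 motif in 6.60% of the 27305 promoters of the table. Of the 49 higher genes 41 had a promoter there, of which 1 held the STAT motif (2.44%) and 4 the AP-1 motif (9.76%). Of the 5871 compared genes with a promoter, 5.62% held the first and 3.29% the second. A match is a description of letters and not a site.

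CSF2RA, DNASE2 and ORM1 were past 2-fold higher in IL-6 culture with a control change that was lacking, and SERPINA1 with one that was opposite. CSF2RA, the alpha chain of the GM-CSF receptor, had values of -0.71, 0.47 and 0.40 in control and -0.92, -0.14 and 0.89 in IL-6 culture. In control culture it had reached its 48 h level by 24 h, whereas in IL-6 culture the change from 24 to 48 h was 1.03 log2 against -0.07. DNASE2, the acid DNase of lysosomes, had values of 0.08, -0.62 and -0.48 in control and -0.18, 0.01 and 1.19 in IL-6 culture, a change of 1.17 against 0.13. SERPINA1 encodes alpha-1-antitrypsin, the main inhibitor of neutrophil elastase. Its recovered levels were 6.96, 9.41 and 6.36 in control and 14.3, 24.7 and 50.1 in IL-6 culture, with every IL-6 library above every control library. It was 1.02 log2 higher at 48 than at 24 h in IL-6 culture and 0.57 lower in control culture. ORM1, the acute-phase protein orosomucoid, changed by 1.01 against 0.06 log2.

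ALOX5, which makes the first step of leukotriene synthesis, was 1.72 log2 higher in IL-6 culture (3.30-fold) and 0.58 higher in control culture. Its recovered levels were 6.29, 6.94 and 10.3 in control and 8.64, 6.48 and 21.4 in IL-6 culture. The IL-6 library of 48 h stood apart from the other 5. With a mean level of 10.01, ALOX5 passed the filter of 10 only through that library. FGR, a Src-family kinase of myeloid cells, changed by 1.52 against 0.66. S100P, a calcium-binding protein, changed by 1.37 against 0.90, and CST7, the protease inhibitor cystatin F of leukocyte granules, by 1.17 against 0.82. The 4 genes had partial control changes, so that their IL-6 changes were larger in size than those of the control but of the same direction.

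BSDC1 had the largest excess over control among the higher genes after CD14: values of -0.12, 0.57 and 0.12 in control and -0.57, -0.70 and 0.70 in IL-6 culture gave a change of 1.41 against -0.45. UNC13D, a granule-release factor of cytotoxic and myeloid cells, changed by 1.10 against -0.21, and AKT2, a kinase of the insulin pathway, by 1.13 against -0.06. The fatty acid desaturase family member FADS3 changed by 1.25 against -0.24 and HS1BP3 by 1.15 against -0.31. In each of these 5 genes the IL-6 library of 24 h lay below all 3 control libraries, and that of 48 h above all 3. Over the 28 higher genes that the control culture lacked, the IL-6 library of 24 h lay below every control library in 21. That of 48 h lay above every control library in 22. Over all 7105 genes these counts were 2039 and 1521. The 28 genes were chosen by these same libraries, which favours such positions, so the contrast with all genes is no evidence.

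The STAT3 targets PIM1 and BCL3 were above control at each time in IL-6 culture and changed by less than 2-fold between 24 and 48 h. PIM1, a survival kinase, had values of -1.26, -1.60 and -1.14 in control and 0.89, 1.15 and 1.96 in IL-6 culture, a change of 0.80 against 0.47. BCL3, a nuclear member of the I-kappa-B family, had values of -1.93, -1.34 and -0.46 in control and 0.48, 1.28 and 1.96 in IL-6 culture, a change of 0.68 against 0.87. In both genes every IL-6 library lay above every control library, and the change over the interval was about as large in the control culture for BCL3. STAT3 itself changed by 0.25 against -0.18, IL6R by 0.25 against -0.03 and IL6ST, which lies just under the level of 10, by -0.14 against -0.40. Of 38 listed STAT3 targets and feedback genes 22 were at the level compared. None of these was past 2-fold in either culture, where 2.04% of all genes compared were in IL-6 and 0.676% in control culture. With so few genes a count of 0 is near those shares. Their median change was 0.30 against 0.10, beside -0.01 and -0.05 over all genes compared.

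A few genes of the IL-6 response lay under the level of 10 and enter no count. SOCS3, the feedback inhibitor of the receptor, had recovered levels of 0.72, 0.99 and 0.51 in control and 3.20, 2.59 and 8.50 in IL-6 culture. MMP9, the secreted gelatinase of macrophages, had levels of 3.36, 2.54 and 1.29 in control and 2.87, 2.44 and 8.72 in IL-6 culture. ITGAM, the integrin chain CD11b of monocytes, had levels of 7.53, 4.22 and 3.45 in control and 5.07, 2.92 and 10.4 in IL-6 culture; it was picked from the monocytic marker list after its values were seen. MPO, the granule enzyme myeloperoxidase and the other marker of that list with a recovered level, had levels of 2.27, 3.55 and 6.08 in control and 2.55, 2.76 and 3.80 in IL-6 culture, so its larger change was in control culture. In SOCS3, MMP9 and ITGAM the IL-6 library of 48 h was the highest of the 6 and the control culture went the other way between 24 and 48 h, by -0.95 log2 for SOCS3 and -0.98 for MMP9 against 1.72 and 1.84 in IL-6 culture.

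Some genes that stood well above control in the IL-6 library of 24 h changed by less than 2-fold from there. CCL2, the monocyte chemoattractant MCP-1, changed by 0.25 log2, HSD11B1, which regenerates cortisol, by 0.34, and CLU, the extracellular chaperone clusterin, by 0.59. The calgranulins S100A8, S100A9 and S100A12 changed by -0.41, -0.31 and -0.23, and the control libraries changed by -0.75, -0.41 and -0.89. AKAP7, an anchor of protein kinase A, was lower in IL-6 than in control culture at each time and changed by 0.07 against -0.07.

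**Figure D1:**
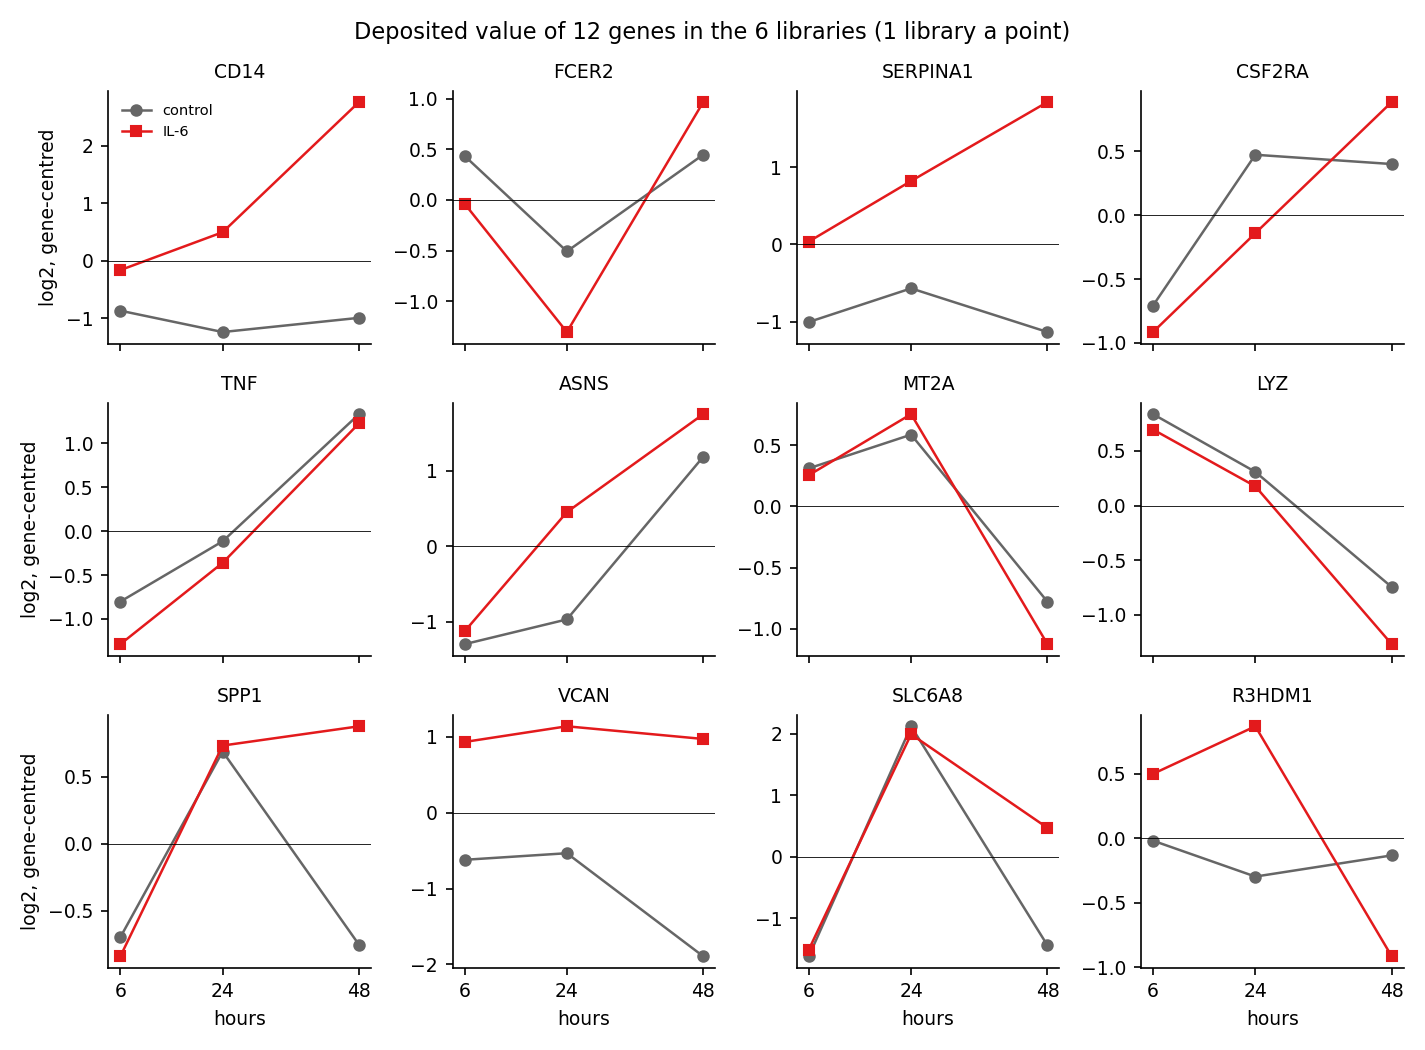
Deposited log2 value (gene-centred, vertical axis, a different range in each panel) of 12 genes at 6, 24 and 48 h (horizontal axis); each point is 1 library, grey for control and red for IL-6 culture. CD14 is at 2.77 at 48 h in IL-6 culture and below 0 in the control libraries, and TNF and LYZ move alike in both cultures. From 24 to 48 h SPP1 and VCAN change by -1.44 and -1.36 in control culture, against 0.14 and -0.17 in IL-6 culture.

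Of the 6 increases shared by both cultures TNF had the largest change in IL-6 culture and NDUFA4L2 the largest in control culture, and 3 others (PHGDH, ASNS and CHAC1) were genes of the integrated stress response, in which ATF4 and its partners switch on amino acid supply when amino acids are short. TNF, the inflammatory cytokine (chr6:31575565-31578336), had values of -0.80, -0.11 and 1.33 in control and -1.29, -0.36 and 1.23 in IL-6 culture. The 48 h libraries of both cultures stood apart from the other 4, and the changes were 1.59 log2 in IL-6 and 1.45 in control culture. ASNS, asparagine synthetase (chr7:97851677-97872542), had levels of 10.9, 13.6 and 60.9 in control and 12.2, 36.6 and 90.2 in IL-6 culture. CHAC1, which breaks down glutathione (chr15:40952962-40956512), had levels of 3.84, 7.66 and 31.3 in control and 7.20, 29.2 and 66.7 in IL-6 culture. Both genes were already higher in the IL-6 library of 24 h, so that the change over the interval was smaller in IL-6 culture: 1.30 against 2.16 for ASNS and 1.19 against 2.03 for CHAC1. PHGDH, the first enzyme of serine synthesis, changed by 1.36 against 1.22.

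Of 46 listed stress-response genes 40 were compared, of which 5 were past 2-fold higher in IL-6 culture (PHGDH, ASNS, PCK2, CHAC1 and WARS1) and 5 in control culture, and none was past 2-fold lower in either. Over all genes compared 0.69% were past 2-fold higher in IL-6 culture and 0.239% in control culture. The median change was 0.57 in IL-6 and 0.49 in control culture, against -0.01 and -0.05 over all genes compared. In IL-6 culture 38 of the 40 were above 0, as were 3515 of all 7105 genes. NDUFA4L2, a mitochondrial protein, changed by 1.34 against 2.47, and MX1, an antiviral GTPase of the interferon response, by 1.05 against 1.39. Among 18 compared interferon-stimulated genes MX1 was the only one past 2-fold in either culture, with medians of 0.33 and 0.25.

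The windows before the starts of ASNS and CHAC1 are shown because both genes moved the same way in both cultures and belong to the ATF4 programme. Capitals mark TGATGNAA, the C/EBP-ATF response element, on either strand. RefSeq (GRCh38.p14) places them at chr7:97872409-97872658 on the minus strand and chr15:40953221-40953470 on the plus strand, and the deposited gene models again begin further upstream.
ASNS: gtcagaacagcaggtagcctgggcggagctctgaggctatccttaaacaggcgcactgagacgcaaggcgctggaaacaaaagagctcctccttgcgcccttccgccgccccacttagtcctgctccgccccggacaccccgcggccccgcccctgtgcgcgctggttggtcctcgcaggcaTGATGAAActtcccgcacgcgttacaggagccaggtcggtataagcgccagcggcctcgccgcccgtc
CHAC1: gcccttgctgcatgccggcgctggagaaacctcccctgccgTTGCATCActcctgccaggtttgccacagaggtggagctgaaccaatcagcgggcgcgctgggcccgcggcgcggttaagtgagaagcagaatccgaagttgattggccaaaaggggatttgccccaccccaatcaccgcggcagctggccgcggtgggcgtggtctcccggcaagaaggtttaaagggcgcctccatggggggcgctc
The element was in 3.19% of all 27305 promoters, in 1.35% of the 5871 compared genes with a promoter, and in 3 of the 32 compared stress-response genes with one (9.38%).

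The list with the lowest median in IL-6 culture was that of the metallothioneins, small cysteine-rich proteins that bind zinc and copper and lie together on chromosome 16. MT2A (chr16:56608584-56609497, plus strand) had values of 0.31, 0.59 and -0.78 in control and 0.25, 0.75 and -1.13 in IL-6 culture. The 48 h libraries of both cultures were the lowest, and the change was -1.88 log2 in IL-6 against -1.37 in control culture. MT1X had values of 0.55, -0.16 and -0.71 in control and 0.94, 0.42 and -1.04 in IL-6 culture, a change of -1.46 against -0.56. MT1G changed by -1.47 against -0.59, MT1E by -1.30 against -0.47 and MT1F by -1.15 against -0.86. All 5 metallothioneins compared were past 2-fold lower in IL-6 culture, and MT2A alone was in control culture. Over all genes compared the shares were 1.35% and 0.436%. The 4 zinc genes listed with them (MTF1, SLC30A1, SLC39A14 and SLC39A8) were under 2-fold in both cultures, between -0.31 and 0.47 in IL-6 culture. The MT1 genes are near copies of each other, so the reads of 1 may be counted in another and their separate values are uncertain.

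The windows before MT2A (chr16:56608334-56608583, plus strand) and MT1X (chr16:56682220-56682469, plus strand) are shown because the 2 genes moved together. Capitals mark TGCACNC and TGCGCNC, the core of the metal response element read by the zinc sensor MTF1, on either strand: 7 matches in MT2A and 4 in MT1X.
MT2A: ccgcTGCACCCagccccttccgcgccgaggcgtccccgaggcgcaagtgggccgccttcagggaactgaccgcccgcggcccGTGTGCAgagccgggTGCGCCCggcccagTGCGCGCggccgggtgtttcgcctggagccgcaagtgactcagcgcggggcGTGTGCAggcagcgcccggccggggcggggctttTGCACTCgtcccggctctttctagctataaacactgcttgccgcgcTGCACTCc
MT1X: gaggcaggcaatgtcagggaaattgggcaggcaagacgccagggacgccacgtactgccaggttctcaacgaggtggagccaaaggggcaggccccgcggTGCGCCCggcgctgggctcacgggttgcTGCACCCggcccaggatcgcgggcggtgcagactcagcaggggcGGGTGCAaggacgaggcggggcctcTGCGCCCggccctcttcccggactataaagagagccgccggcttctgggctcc
At least 1 of these cores was in 24.7% of all promoters of the table and in 34.3% of those of the compared genes, so a single match is common. The 5 genes of the zinc list with a promoter in the table included 3 that held one.

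Other decreases shared by both cultures included genes of the hypoxia response, mitosis and the monocyte secretory product lysozyme. BCL2L2-PABPN1, at -1.67 in IL-6 against -1.46 in control culture, and GPR183, at -1.07 against -1.33, were shared too and belonged to none of these groups. LYZ (chr12:69348381-69354234) had values of 0.84, 0.31 and -0.75 in control and 0.70, 0.18 and -1.27 in IL-6 culture, lower at each later time in both. Its change over the interval was -1.45 against -1.06. BNIP3, a mitophagy receptor induced by low oxygen, changed by -1.43 against -2.06, and P4HA1, a collagen prolyl hydroxylase subunit, by -1.33 against -1.29. SLC6A8, the creatine transporter, had values of -1.62, 2.12 and -1.45 in control and -1.51, 1.99 and 0.47 in IL-6 culture. Both cultures peaked at 24 h, but the control culture was back near its 6 h level by 48 h and the IL-6 culture was not, with changes of -3.57 and -1.52. ALDOC, a glycolytic aldolase, showed the same order, with -2.07 in control and -0.90 in IL-6 culture. Of 25 compared genes of glycolysis and hypoxia, 2 were past 2-fold lower in IL-6 and 3 in control culture, against 1.35% and 0.436% of all genes. Their medians were -0.14 and -0.43, and 22 of the 25 had the higher change in IL-6 culture, as did 3828 of all 7105 genes. Not all of them fell: 9 of the 25 were above 0 in IL-6 culture, up to 0.72, and 2 in control culture, up to 0.12. Over all 7105 genes 3515 and 2976 were above 0.

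Mitotic genes were lower in both cultures. HMMR, a spindle protein, changed by -1.23 in IL-6 and -1.21 in control culture, and CENPF, a kinetochore protein, by -1.17 against -0.73. Of 39 compared mitotic genes, 4 were past 2-fold lower in IL-6 culture (HMMR, CENPF, CKS2 and UBE2C) and 5 in control culture. The shares over all genes compared were 1.35% and 0.436%. The medians of the mitotic genes were -0.55 and -0.69. Replication genes did not follow: none of 41 was past 2-fold in either culture, and their medians were 0.14 and 0.28. Cholesterol synthesis and uptake genes had medians of -0.56 and -0.68 over 23 genes. LSS, lanosterol synthase, was the 1 past 2-fold, at -1.14 in control culture and -0.90 in IL-6 culture.

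Of the 96 lower genes in IL-6 culture, 60 were lacking in the control culture. LSM3, a splicing protein, had values of 0.12, -0.12 and -0.11 in control and 0.30, 0.54 and -0.73 in IL-6 culture, a change of -1.28 against 0.01. SNRPD1, a core spliceosome protein, changed by -1.07 against 0.34, LSM8 by -1.07 against 0.30 and SNRPB2 by -1.29 against -0.37. The respiratory chain genes UQCR11, ATP5MG and NDUFA3 changed by -1.20, -1.14 and -1.11 in IL-6 culture and by -0.33, -0.32 and -0.45 in control culture, and COX16, an assembly factor of cytochrome oxidase, by -1.27 against -0.09. The splicing and respiratory genes named here are a part of the 60, grouped by kind. Splicing genes compared were not counted, so their share past 2-fold is not known. Of 46 listed nuclear respiratory genes 0 were past 2-fold lower in IL-6 culture, against 1.35% of all genes compared. BOLA2B changed by -1.36 against -0.33; its near-identical copy BOLA2 was also past 2-fold lower, and the copies may share reads. In the 60 lower genes that control lacked, the IL-6 library of 24 h lay above every control library in 50. That of 48 h lay below every control library in 57. Over all 7105 genes these counts were 1766 and 2373. Here too the choice of the genes favours such positions, so the contrast is no evidence.

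The largest decrease of all rested on 1 high library, the IL-6 library of 24 h, through which alone the gene passed the level filter. ENSG00000144785, listed without a symbol (chr12:56285916-56316059, minus strand), had recovered levels of 8.49, 9.31 and 5.98 in control and 5.73, 41.1 and 4.50 in IL-6 culture, a change of -3.19 against -0.64. R3HDM1 had levels of 13.8, 11.4 and 12.7 in control and 19.7, 25.4 and 7.40 in IL-6 culture. It went from the highest to the lowest library of the 6, a change of -1.78 against 0.16. C18orf32 was the only lower gene whose control moved the other way, with values of 0.17, -0.30 and 0.60 in control and 0.57, 0.35 and -1.40 in IL-6 culture. IGSF6 and CD302, surface proteins of myeloid cells, were lower by 1.06 and 1.01 log2 at 48 h in IL-6 culture, against changes of 0.08 and -0.07 in control culture.

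Ribosomal protein and respiratory chain lists had medians below 0 in both cultures, with no listed member past 2-fold. That depends on the members chosen. UQCR11, ATP5MG and NDUFA3 are not on the list, nor are UQCRH (-1.10 in IL-6 against -0.51 in control culture) and ATP5MK (-1.22 against -0.29). All 60 cytosolic ribosomal protein genes were compared: their median change was -0.46 in IL-6 and -0.11 in control culture, and in 57 of 60 the IL-6 change was below the control change, as it was in 3277 of all 7105 genes. RPS28, RPS21 and RPS29 were lowest, at -0.98, -0.97 and -0.94. The 46 nuclear genes of oxidative phosphorylation had medians of -0.39 and -0.11, with 37 of 46 below their control change, and the 13 mitochondrially encoded genes had medians of -0.38 and -0.03, with all 13 below it.

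These differences moved together with the base composition of the transcripts. Across the 7095 genes with a GC value (99.9%), GC content and the IL-6 change had a Spearman rho of 0.37, against 0.06 for the control change. With the genes in 10 bins of GC, the median IL-6 change went from -0.21 in the 710 genes of lowest GC to 0.19 in the 710 of highest GC, and from -0.06 to 0.02 in control culture. GC and the value of a single library had a rho of -0.35 in the IL-6 library of 24 h and 0.24 in that of 48 h, and between -0.07 and 0.16 in the other 4. The higher genes had a median GC of 57.7% and the lower genes 43.9%, against 49.1% over all. The 712 shortest genes had a median IL-6 change of -0.21 against -0.05 in control culture, and 28 of the 96 lower genes were among them.

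With GC content and length fitted out, 26 genes were past 2-fold higher and 68 lower in IL-6 culture, and 22 of the 49 and 51 of the 96 stayed past it. Of the 28 higher genes that control lacked, 8 stayed past 2-fold, among them CD14 at 2.19, ORM1 at 1.33, BSDC1 at 1.22, SYTL1 at 1.09, DNASE2 at 1.07 and CSF2RA at 1.03. FCER2 was at 2.13 and ALOX5 at 1.54, whereas SERPINA1 was at 0.86, UNC13D at 0.81 and AKT2 at 0.88. Of the 60 lower genes that control lacked 26 stayed, among them R3HDM1 at -1.75, LSM3 at -1.26 and UQCR11 at -1.19. Among those that did not stay were SNRPD1 at -0.91, LSM8 at -0.96, COX16 at -0.97, NDUFA3 at -0.98, IGSF6 at -0.96 and CD302 at -0.77. The ribosomal protein median was then -0.39, that of the nuclear respiratory genes -0.31 and that of the mitochondrially encoded genes 0.16, which turned its direction. The calgranulin and S100 median turned as well, from -0.31 to 0.13. The 5 metallothioneins were between -0.99 and -1.69. The part of base composition in the differences was not tested.

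**Figure D2:**
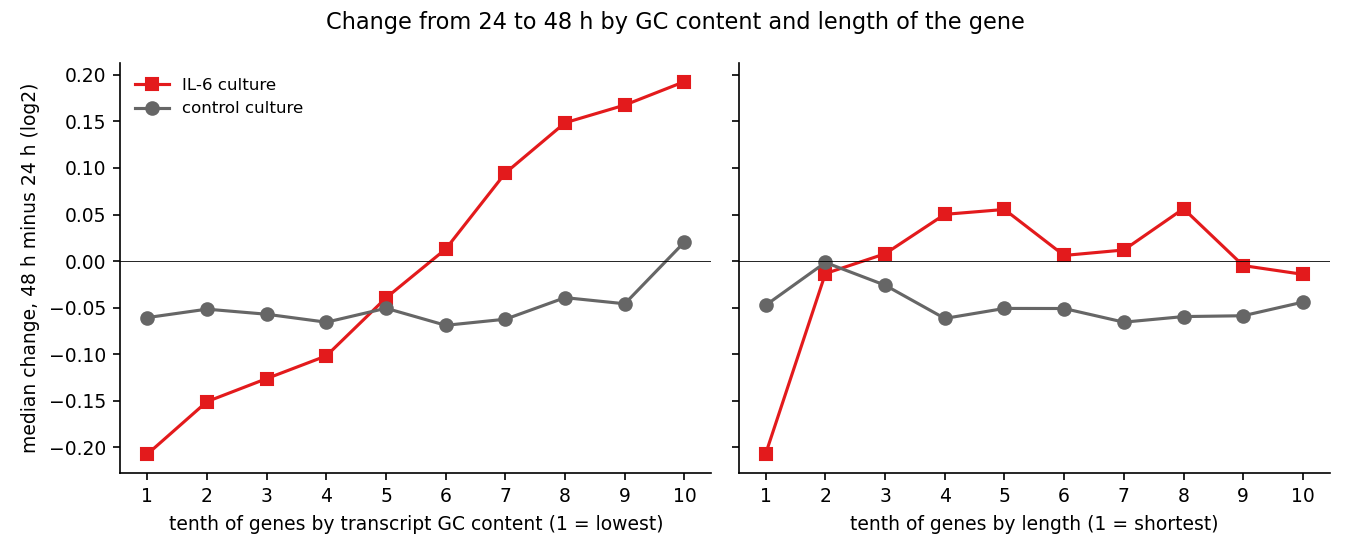
Median change from 24 to 48 h (log2, vertical axis) in 10 bins of the compared genes ordered by transcript GC content (left) and by length (right), red for IL-6 and grey for control culture. The IL-6 line climbs from -0.21 to 0.19 with GC and is low in the shortest bin, while the control line stays between -0.07 and 0.02.

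In all, 13 changes went the other way round, past 2-fold in control culture and under 0.5 log2 in IL-6 culture.
SPP1, the secreted phosphoprotein osteopontin (chr4:87975667-87983532), had recovered levels of 17.5, 45.9 and 16.9 in control and 15.9, 47.4 and 52.3 in IL-6 culture. The cultures were alike at 6 and 24 h and differed at 48 h, where control had returned to its first level: the change was -1.44 in control and 0.14 in IL-6 culture. BHLHE40, a transcriptional repressor, had levels of 3.48, 16.7 and 6.34 in control and 6.53, 23.3 and 24.5 in IL-6 culture, a change of -1.40 against 0.07. VCAN, the matrix proteoglycan versican of monocytes, had levels of 5.57, 5.92 and 2.31 in control and 16.4, 18.9 and 16.8 in IL-6 culture, a change of -1.36 against -0.17. TUBA1A, an alpha-tubulin, changed by -1.28 against -0.45 and ACSS2, an acetyl-CoA synthetase, by -1.15 against -0.42. Among the 5 higher control genes, ANXA3, a calcium-dependent membrane binder, had levels of 2.18, 2.72 and 5.47 in control and 12.7, 21.2 and 28.0 in IL-6 culture. Its change was 1.01 in control and 0.40 in IL-6 culture, from a level that was far higher in IL-6 culture. PEMT, a phospholipid methyltransferase, changed by 1.11 against -0.20.

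Several lists had medians on opposite sides of 0 in the 2 cultures, mostly with no member past 2-fold in IL-6 culture. Immediate early genes, which answer growth and stress signals, had a median of 0.41 in IL-6 and -0.05 in control culture over 15 genes, with IER2 at 0.66 and JUNB at 0.62. The median was 0.32 against -0.05 for 13 myeloid transcription factors, 0.27 against -0.25 for 10 iron-handling genes and 0.19 against -0.15 for 28 lysosomal genes. With GC content and length fitted out, the IL-6 median was 0.25 for immediate early genes, 0.12 for myeloid transcription factors, 0.10 for lysosomal genes and 0.36 for iron-handling genes. CTSD, the aspartic protease cathepsin D, changed by 0.89 against 0.05 and SLC11A1, the phagosome metal exporter NRAMP1, by 0.85 against 0.21. Of 20 compared monocyte and macrophage surface genes 2 were past 2-fold higher in IL-6 culture (CD14 and CSF2RA) and 1 lower (LYZ), against 0 and 2 in control culture, with medians of 0.23 and -0.15. Over all genes compared 0.69% were higher and 1.35% lower in IL-6 culture, and 0.239% and 0.436% in control culture.

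**Figure D3:**
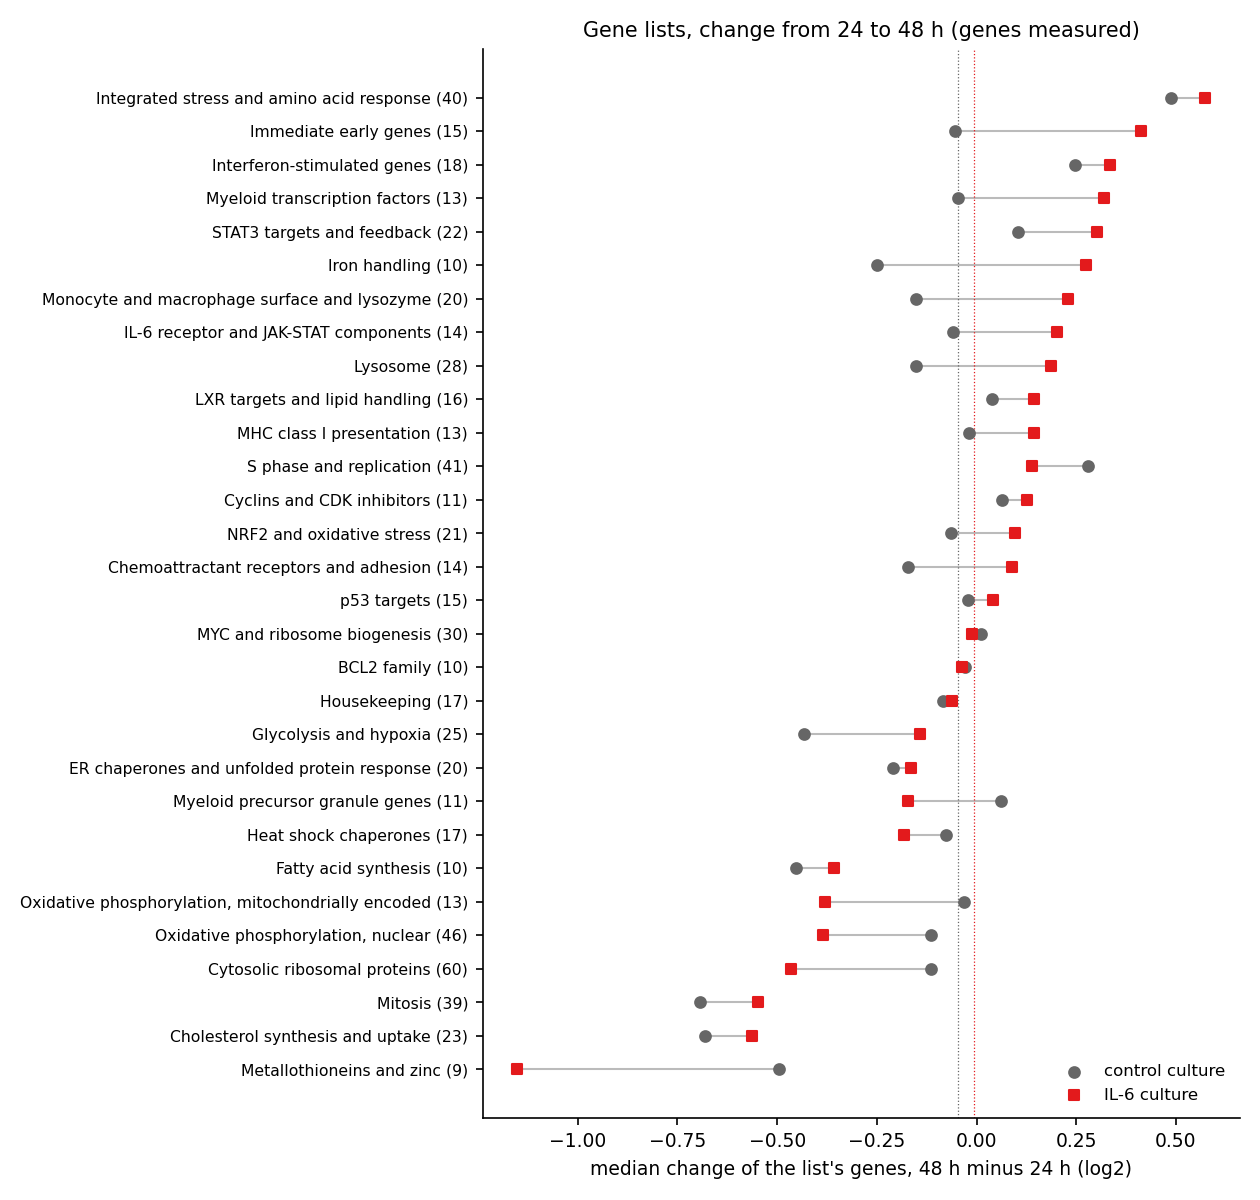
Median change from 24 to 48 h (log2, horizontal axis) of the gene lists with at least 9 genes compared, red squares for IL-6 and grey circles for control culture, with the number of genes in brackets; dotted lines are the medians of all genes. Metallothioneins lie lowest at -1.15 in IL-6 culture, and the integrated stress response lies highest in both cultures.

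A fit across all genes was possible only for the change common to both cultures, with time and agent as terms and all 6 libraries (limma, Benjamini-Hochberg adjusted over 13425 genes, 2 residual degrees of freedom). It called 17 genes higher at 48 than at 24 h (0.127%) and 63 lower (0.469%), of which 17 and 42 were protein-coding. The variance trend followed each gene's level, and genes without a recovered level, such as MT2A, LYZ and PHGDH, were assigned 100. With such genes left out 6 were called higher and 24 lower. MT2A had the smallest p-value, with a change of -1.62 (SE 0.15, adjusted p = 0.00291). LYZ fell by 1.25 (SE 0.14, adjusted p = 0.00931), as did HMMR by 1.22 (SE 0.14) and P4HA1 by 1.31 (SE 0.17, adjusted p = 0.0169). Among the genes that rose were PHGDH at 1.29 (SE 0.16, adjusted p = 0.0115), SLC7A5, a leucine transporter, at 0.98 (SE 0.13), CHAC1 at 1.61 (SE 0.24) and TNF at 1.52 (SE 0.23, adjusted p = 0.0181). CD14 had a common change of 1.26 with an SE of 0.99 and an adjusted p of 0.749, and SERPINA1 one of 0.23 with an SE of 0.43. With 1 library per condition, the residual of this fit holds any difference between the cultures in their change over time. A gene that changed in IL-6 culture alone thus gets a large SE, and its p-value says nothing of the IL-6 change. The calls rested on single libraries: without the control library of 24 h the fit called 0 higher and 2 lower, and without the IL-6 library of 24 h 2 and 0. Without the control library of 48 h it called 101 and 426, and without the IL-6 library of 48 h 7 and 59. They also rested on the variance trend, without which the fit called 0 and 0, with 480 and 772 genes at an unadjusted p under 0.05.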

How the data were processed

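Total RNA of 6 THP-1 libraries was amplified as full-length cDNA, tagmented and sequenced, per the labels' protocols. The deposited values are log2 values of processed signal, per the file headers, and the build named is GRCh38 (hg38), per the submitters' processing notes. The aligner, counter and scaling were not given in the sources used here, and the depth is unknown. Each file lists 60325 genes, with 22000 to 23108 values per library. The authors' log2 values have a mean of 0 for each gene. With 1 offset taken from each library, 15129 of the 17388 genes with 6 values became whole multiples of a 0.001 step (relative tolerance 6e-07 up to a level of 30 and 4e-07 above it), which gave back each gene's level on the authors' scale with a floor of 0.01. In 202 genes at least 1 library was at that floor, with a highest level of 3.77, below the filter. The 2056 genes with no level recovered were treated as high, since the search ends at 100; 1986 of the 7105 compared genes are of this kind. Levels were not compared between genes.

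Differences are of single libraries. Genes were named by rule: the 15 largest rises and falls, the largest excesses over control, the largest shared changes, the control changes lacking in IL-6 culture, the smallest limma p-values, members of the 45 gene lists, and key genes of the IL-6 response. Some other genes past 2-fold, UQCR11 among them, were picked by kind outside these rules. The members and lists were chosen with earlier results of these data known. GC content came from GENCODE 29 transcripts and was fitted out, with length, by splines of 4 degrees of freedom. The common change was fitted with limma 3.58.1 (R 4.3.3), robust, with a variance trend, a level of at least 1 and a threshold of 0.05; the procedures were tested on simulated data. Promoters are from RefSeq (GRCh38.p14). The p-values rest on the spread between these libraries alone. That spread may be technical, and it also holds any difference between the cultures in their change over time. Overlapping genes and antisense partners cannot be told apart, since the library type does not mark strand.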

Additional observations from a re-analysis of the deposited data

Results flagged for a closer look

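In 3 genes past 2-fold in IL-6 culture the control culture moved at least 0.5 log2 the other way over the same interval; the difference was not tested, with 1 library per condition. C18orf32 differed most, with an IL-6 change minus control change of -2.65 log2. For SERPINA1, alpha-1-antitrypsin, the difference was 1.59, and for ELL, a transcription elongation factor, it was 1.61, from 1.10 in IL-6 and -0.51 in control culture. The mean levels of ELL (10.11) and C18orf32 (10.10) lay just over the filter of 10. SERPINA1 passed it only through the IL-6 libraries, and its control levels were all under 10.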

How the results depend on the processing

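The counts moved with the filter on low levels and with the fold. With a level of at least 1, 449 genes were higher and 292 lower in IL-6 culture, 262 and 141 exceeded control, 225 and 154 were lacking in control, 101 were shared and 182 changed in control culture alone. With no level filter these counts were 885, 666, 573, 402, 367, 268, 310 and 376, and at 1.5-fold they were 390, 556, 243, 265, 323, 451, 118 and 178. Without the genes of unrecovered level 58 were lower and 37 lower genes were lacking in control. With a pseudocount of 1, 10 higher genes exceeded control. After the GC and length adjustment, which was chosen after the data were seen, 26 were higher, 7 and 19 exceeded control, and 10 and 37 were lacking in control. All other counts stayed within 1.5 times, and no change past 2-fold turned its direction under any setting run.

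The limma counts of higher and lower genes over both cultures were 0 and 0 without the variance trend, 11 and 41 without robust fitting, 35 and 111 at a level of 10, 0 and 6 with no level filter, 6 and 24 without unrecovered genes, and 107 and 300 without the 6 h libraries. With equal medians 39 were lower. With each library of 24 or 48 h left out in turn they ran from 0 to 101 and from 0 to 426; the lone library is then assumed to vary like the others. No paired analysis was possible because each condition has 1 library, and the shared number names no pair. The cause of these differences was not tested.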
